A study of Oryza brachyantha and Oryza sativa Japonica Group and Oryza glaberrima with 38 samples.

Results

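Chromosome 9 was followed in 5 grasses of the rice tribe as the set of all deposited histone mark intervals lying more than 500 kb from either end of that chromosome. This gave 28171 intervals in 20 peak lists, out of 497731 intervals on the 12 chromosomes of the same lists. Of these, 9837 came from the 9 lists of H3K9me2 and 18334 from the 11 lists of other marks, and a single list held between 423 and 2682. Membership was set by position alone. The members were described in windows of 500 kb, and the first part of the chromosome is here the stretch from the 500 kb limit to the point where H3K9me2 dropped.

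The lists come from chromatin immunoprecipitation followed by sequencing of above-ground tissue of greenhouse plants. Tillering plants, collected 60 days after germination, gave H3K9me2 in Oryza sativa (Asian rice, japonica), O. glaberrima (African rice), O. punctata and O. brachyantha (both wild rices), and Leersia perrieri, which belongs to the sister genus. Tillering plants also gave H3K4me3 in O. sativa and H3K4me2, H3K4me3, H3K9Ac, H3K27me2 and H3K56Ac in O. brachyantha. Seedlings, collected 2 weeks after germination, gave H3K9me2, H3K27me and H3K56Ac in O. sativa, and H3K9me2, H3K27me and H3K4me3 in O. brachyantha. The label H3K27me does not give the number of methyl groups. No genotype beyond the species, and no treatment, is named.

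Most groups held 1 library. There were 2 libraries each for H3K9me2 of O. sativa seedlings and for H3K9me2 and H3K4me3 of O. brachyantha at tillering, and the titles number the O. brachyantha tillering libraries as batch 1 and batch 2. The labels do not state that the paired libraries stem from different plants, so the spread between them may be technical. The titles name an H3 library as the control of O. sativa seedling H3K9me2 library 2 and of batch 1 H3K4me2 and H3K4me3, and an input library for the other lists used here. With groups of 1 or 2 libraries no difference was tested, and all comparisons below are descriptions of these libraries. The tissue was whole shoots, so a window with a mark in some cells and a window with a weaker mark in all cells cannot be told apart.

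H3K9me2 marks silent, repeat-rich chromatin in plants and lies mostly around centromeres, while H3K4me3, H3K9Ac and H3K56Ac sit at the starts of active genes and H3K4me2 over starts and bodies. H3K27me2 and other methylated forms of lysine 27 are found on silent chromatin, in proportions that differ with the number of methyl groups. Chromosome 9 of O. sativa is known from cytology as a chromosome with a short, heterochromatic arm, whose tip carries ribosomal RNA genes in japonica rice. The covered share used throughout is the percent of a window, or of a longer stretch, that lies inside merged peaks of a list.

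The position of the drop was taken as the single step between 2 levels that left the least squared error over the windows. In O. sativa it lay at 9.0 Mb, which is 39.1% of a chromosome of 23.0 Mb, in tillering plants and in each seedling library. In O. glaberrima it lay at 3.5 Mb, or 19.9% of 17.6 Mb. In O. punctata it lay at 11.5 Mb, or 44.3% of 26.0 Mb, the longest chromosome 9 of the 5. In O. brachyantha it lay at 4.5 Mb in both tillering batches and in seedlings, or 29.0% of 15.5 Mb. In L. perrieri it also lay at 4.5 Mb, or 29.0% of 15.5 Mb. Positions and lengths are in each species' own assembly, with the length taken as the last peak end on the chromosome, so equal positions in different species are not shown to be the same sequence.

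How sharply the chromosome was divided differed between the lists of the 5 species. The step accounted for 84.1% of the variance between windows in O. brachyantha seedlings and for 81.0% over the tillering batches, for 75.1% in L. perrieri and for 70.1% in O. glaberrima. It accounted for 59.4% in O. sativa tillering plants, 58.9% in O. sativa seedlings and 55.7% in O. punctata. In O. brachyantha, L. perrieri and O. glaberrima no window of the rest reached the lowest window of the first part. In O. sativa 3 windows of the rest did so in tillering plants and 5 in seedlings, and in O. punctata 6 did.

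The first part of O. brachyantha had an H3K9me2 covered share of 35.4% in tillering batch 1 and 45.9% in batch 2, and 48.5% in seedlings. The rest had 1.84% and 3.59% in the tillering batches and 4.18% in seedlings. As a mean, tillering plants had 40.7% ± 7.39 in the first part and 2.71% ± 1.24 in the rest (SD, n = 2). The 27.6% of the described length that made up the first part held 85.1% of the H3K9me2 bp in tillering plants and 81.5% in seedlings. The last window inside it had 20.7% and 33.4% in the tillering batches and 35.6% in seedlings, and the next window had 2.45% and 5.62% in the tillering batches and 6.53% in seedlings. Within the first part the windows between 2.0 and 3.5 Mb were the highest, at 51.7% to 56.8% in batch 1, 58.8% to 66.1% in batch 2 and 61.3% to 70.7% in seedlings.

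In O. sativa the first part had 36.2% in tillering plants and 29.7% and 32.1% in the seedling libraries. The rest had 12.4% in tillering plants and 8.75% and 10.3% in the seedling libraries. The seedling mean was 30.9% ± 1.71 in the first part and 9.53% ± 1.11 in the rest (SD, n = 2). The same window, 2.5 to 3.0 Mb, was the highest in all 3 lists, at 65.9% in tillering plants and 57.5% and 60.5% in seedlings. At the drop the last window inside had 29.0% and the next 16.6% in tillering plants, and the seedling mean was 23.5% inside and 11.01% next to it.

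Past the drop, O. sativa kept isolated windows of higher cover. The window from 10.5 to 11 Mb had an H3K9me2 covered share of 29.8% in tillering plants and 22.5% and 24.2% in the seedling libraries, with H3K27me at 35.6% in seedlings. The window from 13 to 13.5 Mb had an H3K9me2 covered share of 39.2% in tillering plants and 31.0% and 33.4% in the seedling libraries, with H3K27me at 44.0% in seedlings. The window from 14.0 to 14.5 Mb had 29.3% in tillering plants and 27.4% and 25.8% in seedlings, with H3K27me at 33.3%. The window from 13.5 to 14.0 Mb had 13.6% in tillering plants and 8.85% and 10.9% in seedlings. The longest H3K9me2 interval of seedling library 1 on the chromosome lay in the last of the 3 higher windows, at 14254329 to 14282235 (27.9 kb, tigr6 assembly). The other O. sativa H3K9me2 lists covered 92.8% to 92.9% of it.

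O. glaberrima had 32.8% in the first part and 8.63% in the rest. Its first window, 0.5 to 1.0 Mb, was lower than the following 5, at 18.7% against 31.0% to 40.2%. The last window inside had 31.0% and the next 11.03%, and a second level of 10.1% to 17.4% ran on to 7.5 Mb. The first part held 45.6% of the H3K9me2 bp, the smallest share of the 5 species. L. perrieri had 17.7% in the first part and 3.77% in the rest, with peaks of 27.8% at 1.5 to 2.0 Mb and 22.5% at 3.5 to 4.0 Mb. Its drop was shallow, with 11.7% in the last window inside and 6.82% in the next. The L. perrieri peaks were also weak, with a median −log10 q from the authors' caller of 0.994 in the first part and 0.972 in the rest. The step lay at 3.7 Mb with 100 kb windows and at 4.0 Mb with peaks at a −log10 q of at least 1 or 2 or with the stronger 50% of peaks. With the split kept at 4.5 Mb, the log2 of the first part over the rest was 1.38 at a limit of 2, against 2.23 for all peaks.

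O. punctata had the lowest covered share, 4.81% in the first part and 1.35% in the rest, with the highest window, 10.6%, at 3.0 to 3.5 Mb. The first part held 73.7% of the bp. This list rests on weak peaks, with a median −log10 q from the authors' caller of 0.708 in the first part and 0.723 in the rest. With peaks at a −log10 q of at least 1 the step moved to 6.0 Mb, and at a limit of 2 it moved to 17.5 Mb. With the split kept at 11.5 Mb, the log2 of the first part over the rest was 1.27 at a limit of 1 and 0.12 at a limit of 2, against 1.83 for all peaks.

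**Figure D1:**
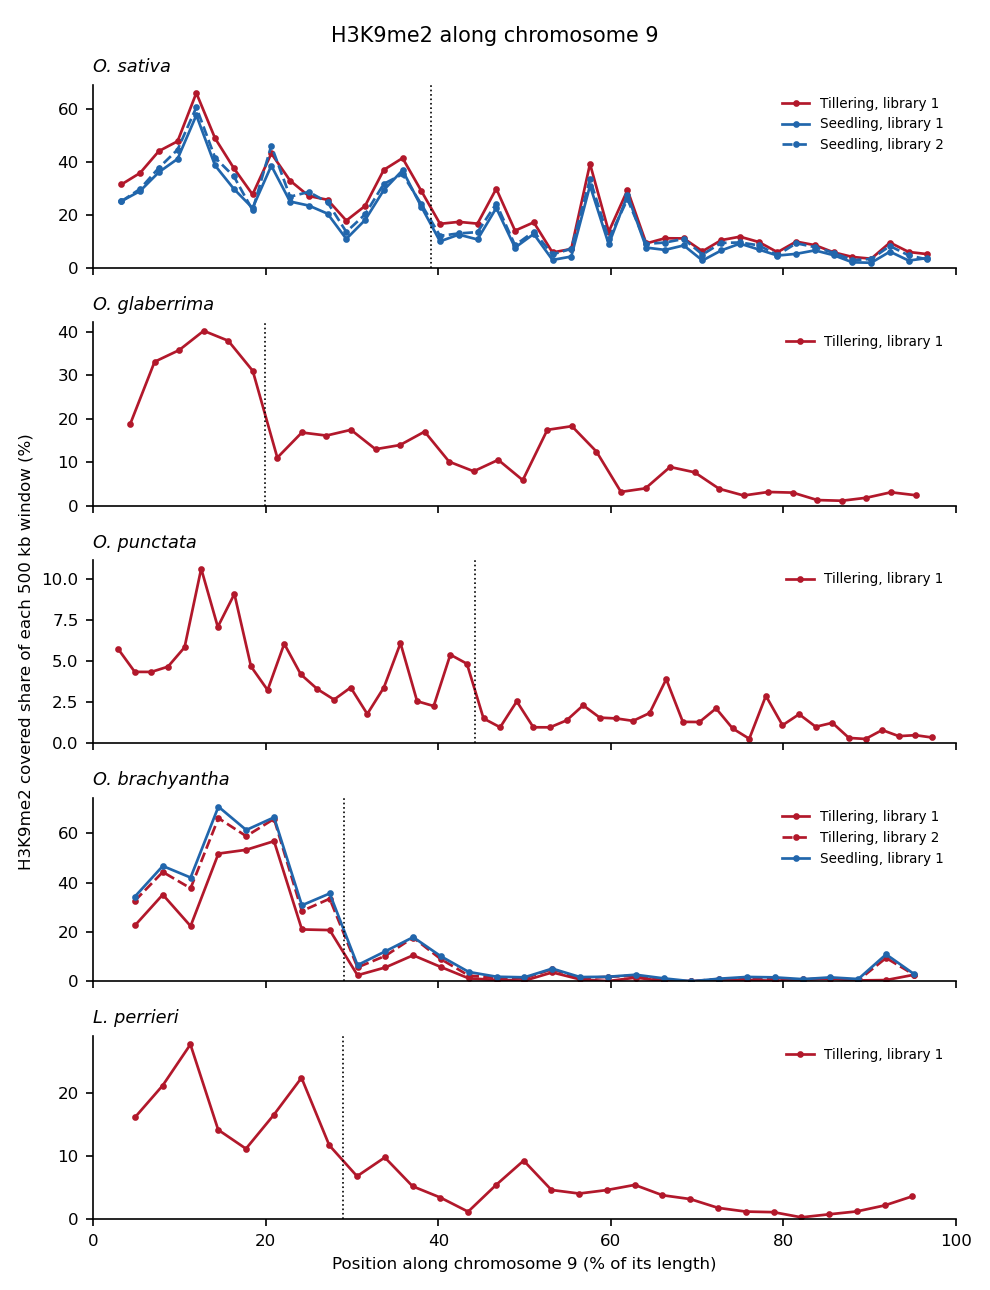
H3K9me2 covered share (%) of each 500 kb window of chromosome 9 against position in percent of the chromosome's length, with a panel per species, red lines for tillering plants, blue lines for seedlings and a dotted line at the end of the first part (windows under 250 kb are not drawn). The drop lies at 39.1% of the length in O. sativa, 19.9% in O. glaberrima, 44.3% in O. punctata, 29.0% in O. brachyantha and 29.0% in L. perrieri, and O. sativa has isolated higher windows after it.

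A window was counted as H3K9me2-rich where its covered share was at least 2 times that of all 12 chromosomes in the same list. On chromosome 9 of O. brachyantha 8 of 29 windows were rich in tillering batch 1, against 16.6% of windows over the 12 chromosomes. Batch 2 also had 8 of 29, against 17.2%, and so did seedlings, against 17.4%. These were the 8 windows of the first part in each list. In L. perrieri 6 of 29 windows were rich, against 14.3% over the 12 chromosomes. In O. punctata there were 8 of 50, against 12.6%, and in O. glaberrima 5 of 33, against 13.7%. In O. sativa there were 5 of 44 in tillering plants, against 10.7%, and 6 and 5 of 44 in seedling libraries 1 and 2, against 12.5% and 10.8%. No rich window lay in the rest in any of the 9 lists. The chromosome 9 share of rich windows was near that of the 12 chromosomes in O. sativa and O. glaberrima, where the H3K9me2 covered share of chromosome 9 ranked 9th and 6th of 12.

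The one-sided layout was also read against the other 11 chromosomes of each species, each with its own step. In O. brachyantha tillering plants the step accounted for 81.0% of the variance on chromosome 9, against 11.4% to 54.0% on the others. In O. glaberrima it was 70.1%, against 13.1% to 53.3%, in L. perrieri 75.1%, against 15.5% to 65.6%, and in O. punctata 55.7%, against 8.68% to 47.2%. In O. sativa tillering plants chromosome 9, at 59.4%, came after chromosome 4, at 69.3%. The first 50% of chromosome 9 held 94.9% of the H3K9me2 bp in O. brachyantha tillering plants, 79.3% in L. perrieri, 77.3% in O. glaberrima and 77.3% in O. punctata. In O. sativa it held 74.8% in tillering plants and 75.7% in seedlings. By this measure chromosome 9 was first only in O. punctata, where the highest other chromosome had 77.1%. The highest other chromosome had 97.1% in O. brachyantha tillering plants, 83.9% in L. perrieri, 83.5% in O. glaberrima and 79.6% in O. sativa tillering plants.

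H3K9me2 domains were longer in the first part. In O. brachyantha, long intervals (10 kb or more) accounted for 49.96% and 64.6% of the first part's H3K9me2 bp in the tillering batches and 69.1% in seedlings. In the rest they held 26.8% and 37.8% in the tillering batches and 28.0% in seedlings. In O. sativa tillering plants the shares were 42.1% in the first part and 25.7% in the rest, in O. glaberrima 19.7% and 4.01%, and in L. perrieri 14.0% and 3.97%. O. punctata had no interval of that length on the described stretch.

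The longest H3K9me2 intervals of O. brachyantha lay close together. Batch 1 had 2550995 to 2610953 (60.0 kb, RS2 assembly) and batch 2 had 2550592 to 2619617 (69.0 kb), so these are the same domain called with different ends. In seedlings the longest was 2084524 to 2179062 (94.5 kb), of which the tillering lists covered 71.8% and 96.0%, and all of it lay in H3K27me. In O. sativa tillering plants the longest were 1374280 to 1417596 (43.3 kb) and 3677335 to 3718014 (40.7 kb). The seedling libraries covered 76.2% and 90.1% of the first of these. O. glaberrima had its longest at 1844511 to 1873233 (28.7 kb), L. perrieri at 1655629 to 1673171 (17.5 kb) and O. punctata at 5060019 to 5063789 (3.77 kb). The O. punctata interval had a pileup of 461.05 at a fold of 1.18 over the control, against a median pileup of 6.47 in its first part. All of these lay inside the first part of their species.

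H3K9me2 lists of the same group overlapped more in the first part than in the rest. The O. brachyantha tillering batches shared 72.7% of the bp in either list in the first part and 46.2% in the rest. The O. sativa seedling libraries shared 65.6% in the first part and 56.8% in the rest. Batch 1 called 326 intervals in the first part and 97 in the rest, and batch 2 called 307 and 155. The O. sativa seedling libraries called 1112 and 1025 in the first part and 692 and 707 in the rest. The covered share, which by itself raises the overlap of lists, was also higher in the first part, and its part in the result was not tested.

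H3K27me followed H3K9me2. In O. brachyantha seedlings it covered 55.98% of the first part and 5.26% of the rest, a log2 ratio of 3.41, and its own step also fell at 4.5 Mb, with 88.6% of the variance. In O. sativa seedlings it covered 42.2% and 15.8%, a log2 ratio of 1.42, with its own step at 9.0 Mb. In O. brachyantha seedlings H3K27me and H3K9me2 shared 77.6% of the bp in either list in the first part and 41.4% in the rest, and 94.1% of the H3K9me2 bp of the first part lay in H3K27me. In O. sativa seedlings they shared 54.2% and 55.8% (libraries 1 and 2) in the first part and 41.7% and 45.5% in the rest. The longest H3K27me interval in O. brachyantha ran from 2082597 to 2222951 (140.4 kb). The H3K27me and H3K9me2 lists of O. brachyantha seedlings were called against the same input library, so they are not independent.

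H3K27me2, profiled in O. brachyantha tillering plants, went the other way. Its list holds narrow intervals, of at most 2137 bp in the first part, while the seedling H3K27me list holds broad ones, of up to 140.4 kb. In O. brachyantha each of these marks has 1 library, at a different stage. Mark, stage and the kind of interval called therefore cannot be told apart in this contrast. It covered 2.04% of the first part and 6.87% of the rest, a log2 ratio of −1.76, and its own step fell at 5.0 Mb. The windows of the first part had between 0.964% and 3.51%. With the other 11 chromosomes each divided into an H3K9me2-rich block and the remainder, the log2 ratio of H3K27me2 had a median of −0.66 and ran from −1.20 to 0.07, so chromosome 9 lay below all of them. With the other chromosomes divided by a single step the range was −0.40 to 0.23. Its intervals were narrower in the first part than in the rest, with medians of 291 and 326 bp, and there were 47.2 per Mb in the first part and 136.5 per Mb in the rest. Of the 189 H3K27me2 intervals in the first part 34.4% touched H3K9me2 of batch 1 and 43.4% touched that of batch 2. In the rest 4.04% and 6.90% of 1434 did so. Any overlap counts as a touch, so these shares grow with interval width and are not comparable with covered shares. By bp, 24.5% and 30.5% of the H3K27me2 of the first part lay in H3K9me2 of batches 1 and 2. The H3K9me2 covered shares there were 35.4% and 45.9%. In the rest 2.25% and 4.07% of the H3K27me2 bp lay in H3K9me2, whose covered shares were 1.84% and 3.59%.

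Marks of active genes were sparse across the first part. In O. brachyantha tillering plants H3K4me2 covered 3.51% of the first part and 14.97% of the rest, a log2 ratio of −2.09. H3K4me3 covered 3.13% and 3.25% of the first part in batches 1 and 2 and 9.24% and 9.20% of the rest. Its log2 ratio was −1.53 ± 0.04 (SD, n = 2), and in seedlings it was −1.67, with 3.02% in the first part and 9.62% in the rest. H3K9Ac covered 2.42% and 8.00%, a log2 ratio of −1.73, and H3K56Ac 2.59% and 7.90%, a log2 ratio of −1.61. In O. sativa H3K4me3 of tillering plants covered 2.22% of the first part and 4.67% of the rest, a log2 ratio of −1.07. H3K56Ac of O. sativa seedlings covered 2.77% and 6.42%, a log2 ratio of −1.21.

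With the other 11 chromosomes divided into block and remainder, these ratios lay inside their range. In that division H3K4me3 of O. brachyantha tillering plants ran from −2.31 to −1.26 in batch 1 and from −2.36 to −1.22 in batch 2. Seedling H3K4me3 ran from −2.27 to −1.22, H3K9Ac from −2.37 to −1.29, H3K56Ac from −2.26 to −1.23 and H3K4me2 from −2.53 to −1.35. In O. sativa H3K4me3 ran from −1.68 to −0.38 and H3K56Ac from −1.84 to −0.84. With a single step on each chromosome, H3K4me2, at −2.09, lay below all 11 others, of which the lowest was at −1.445. Seedling H3K4me3 of O. brachyantha, at −1.67, also lay below them, with the lowest at −1.60, and the other active lists stayed inside the range. H3K27me of O. brachyantha, at 3.41 on chromosome 9, was near the top of a range of 2.15 to 3.44, and H3K27me of O. sativa, at 1.42, was close to the median of 1.43.

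**Figure D2:**
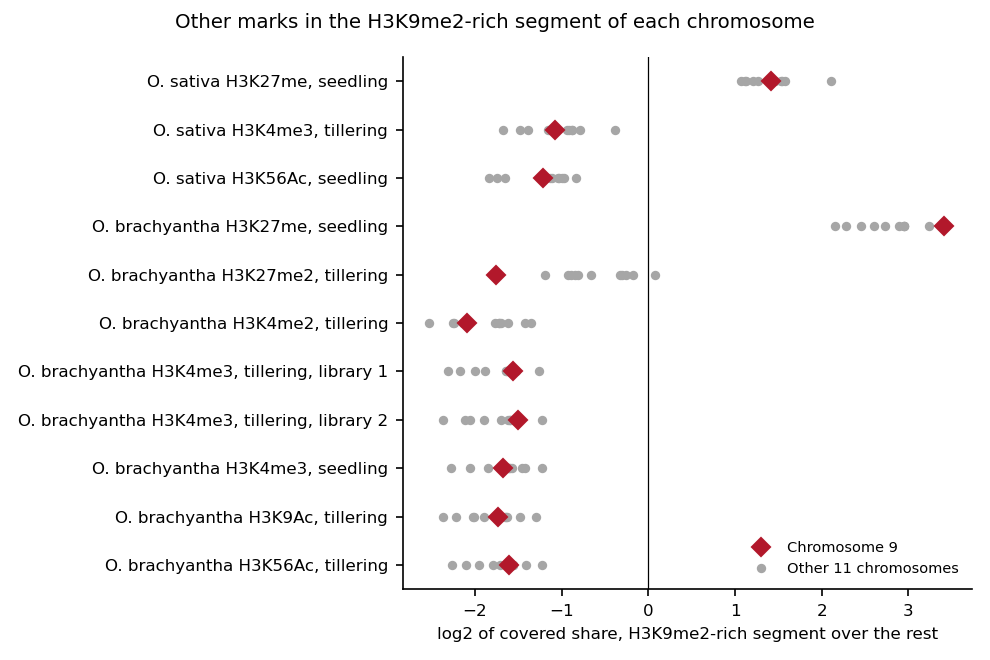
log2 of the covered share in the H3K9me2-rich segment over that in the rest of the chromosome, for each list of another mark, with red diamonds for chromosome 9 (first part over rest) and grey points for the other 11 chromosomes (H3K9me2-rich block over the remainder). H3K27me2 of O. brachyantha, at −1.76, lies below the grey points, which run from −1.20 to 0.07, and the marks of active genes lie among them.

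The marks of active genes did not reach their distal level where H3K9me2 dropped. In O. brachyantha H3K4me2, both H3K4me3 batches, seedling H3K4me3, H3K9Ac and H3K56Ac each had their own step at 7.5 Mb, 3 Mb beyond the end of the first part. In that middle stretch of 4.5 to 7.5 Mb, H3K4me3 covered 5.50% and 5.34% in the tillering batches and 5.66% in seedlings. These values lie between those of the first part and the 10.7% (each tillering batch) and 11.2% (seedlings) of the last stretch. The limit of 7.5 Mb was taken from the steps of these same active marks. Their lower cover in the middle than in the last stretch therefore follows from the choice of limit. H3K4me2 covered 3.51% of the first part, 8.74% of the middle and 17.5% of the last stretch, and H3K9Ac 2.42%, 4.03% and 9.59%. H3K27me2, in contrast, was at 6.22% in the middle and 7.13% in the last stretch. H3K9me2 in the middle was 4.34% and 7.69% in the tillering batches and 8.70% in seedlings, above the 0.835%, 1.95% and 2.38% of the last stretch.

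O. sativa showed the same order. H3K56Ac had its own step at 13.5 Mb and H3K4me3 at 14.5 Mb, against 9.0 Mb for H3K9me2 and H3K27me. The limit of 13.5 Mb used next is the H3K56Ac step, so the rise of that mark after it follows from the choice of limit. Between 9.0 and 13.5 Mb H3K56Ac covered 3.67%, against 2.77% before and 7.79% after. H3K4me3 covered 2.61%, against 2.22% before and 5.70% after. H3K9me2 of the same stretch was 18.2% in tillering plants and 12.7% and 14.5% in the seedling libraries. The profiles of the active marks climbed over many windows, so a single step is a summary of a slope.

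**Figure D3:**
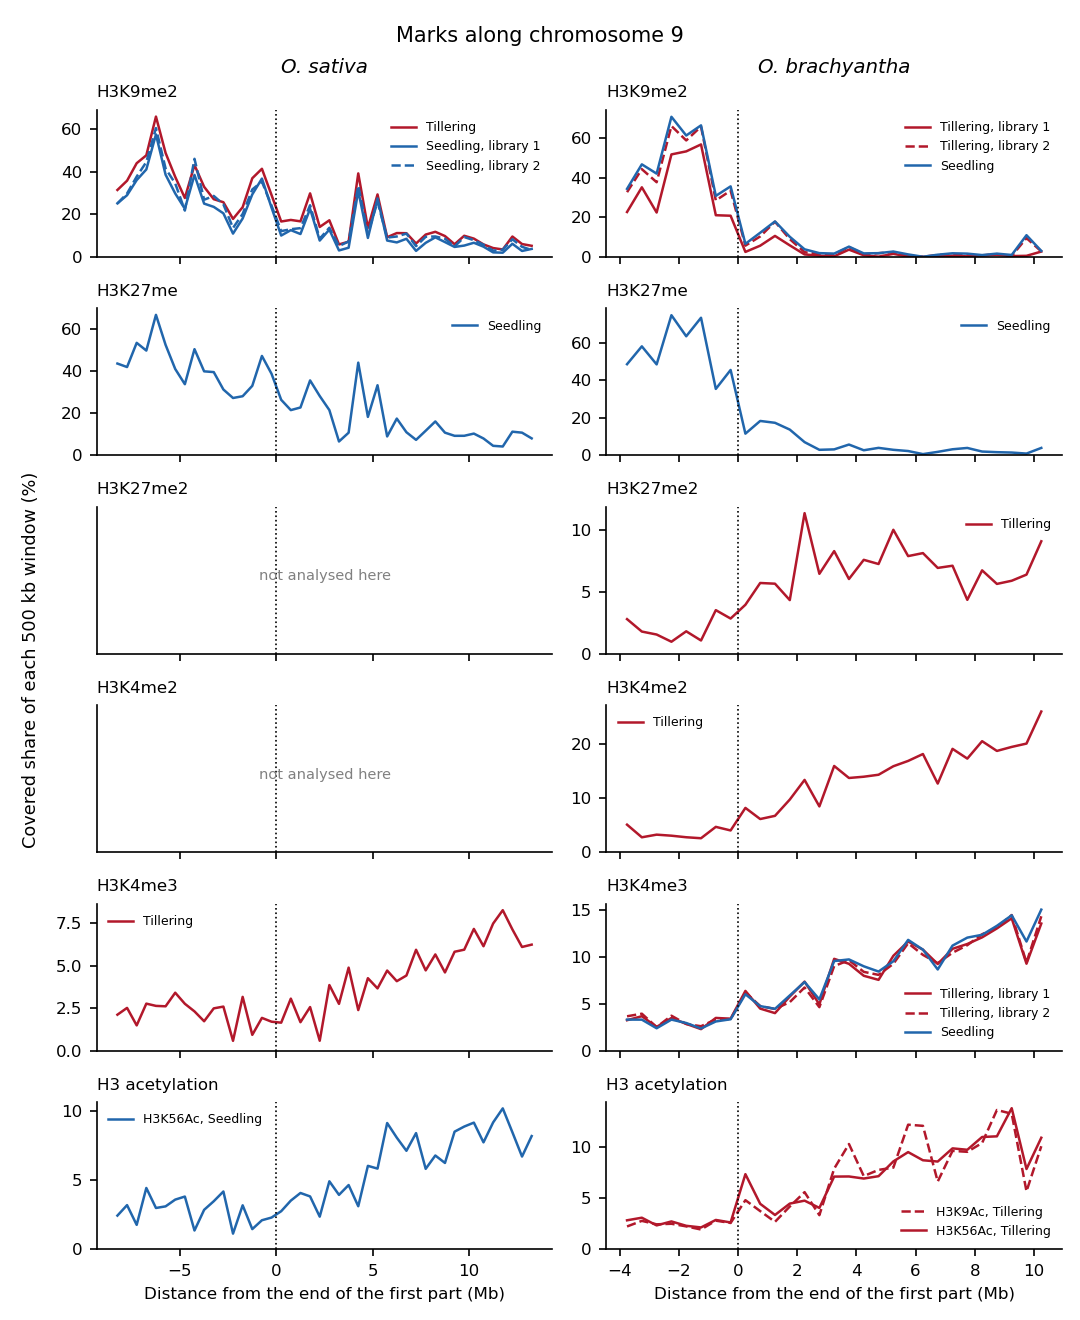
Covered share (%) of each 500 kb window for each mark in O. sativa (left column) and O. brachyantha (right column), against distance in Mb from the end of the H3K9me2-rich first part (dotted line), with red lines for tillering plants and blue lines for seedlings (windows under 250 kb are not drawn). H3K9me2 and H3K27me drop at the line, while H3K4me2, H3K4me3 and acetylation climb beyond it, with their own steps at 7.5 Mb in O. brachyantha and at 13.5 and 14.5 Mb in O. sativa.

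Although sparse, the active intervals of the first part were not weaker by the authors' fold over the control, except for H3K4me2. The median fold of H3K9Ac in O. brachyantha was 8.04 in the first part and 5.09 in the rest. For H3K4me3 it was 6.70 and 5.52 in batch 1, 6.36 and 4.99 in batch 2, and 3.25 and 2.93 in seedlings. For H3K56Ac it was 6.26 and 4.73 in O. brachyantha and 5.95 and 4.44 in O. sativa. For H3K4me2 it was 2.93 in the first part and 3.61 in the rest, and its median width was 531 bp in the first part and 695 bp in the rest. Few active intervals of the first part touched H3K9me2. In O. brachyantha tillering plants 1 of 149 H3K4me3 intervals of batch 1 and 4 of 155 of batch 2 touched H3K9me2 of the same batch. In the rest 1 of 1103 and 0 of 1244 did so. In O. sativa tillering plants 15 of 374 did in the first part and 4 of 1137 in the rest. Other lists of the O. brachyantha first part had larger counts. There 11 of 190 seedling H3K4me3 intervals touched seedling H3K9me2. Of 211 H3K4me2 intervals, 11 touched H3K9me2 of batch 1 and 15 that of batch 2. H3K9me2 also covered less of the rest, and the part of this in the counts was not tested.

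The O. brachyantha lists could be read against the RefSeq annotation of the assembly ObraRS2, whose name matches the RS2 of the lists and whose last gene on chromosome 9 ends 8.16 kb before the last peak. It places 1404 genes in the described stretch, of which 1216 are protein-coding. The first part held 134 protein-coding genes, or 33.5 per Mb, and the rest held 1082, or 103 per Mb. The middle stretch had 64.3 per Mb and the last stretch 118 per Mb. Genes were longer in the first part, with a median span of 4562.5 bp against 3104.5 bp in the rest. They took up 21.5% of the first part and 37.2% of the rest.

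Counted per gene, the marks of gene starts differed little between the first part and the rest. A gene was counted as marked where a peak overlapped any of its span. In tillering plants H3K4me3 marked 81.3% and 80.6% of the genes of the first part in batches 1 and 2, with Wilson 95% intervals of 73.9% to 87.0% and 73.1% to 86.4%. In the rest it marked 79.7% and 82.5% of genes, with intervals of 77.2% to 82.0% and 80.2% to 84.7%. In seedlings it marked 82.8% in the first part and 87.8% in the rest. H3K9Ac marked 76.9% in the first part and 72.2% in the rest, and H3K56Ac 81.3% and 79.3%. These intervals cover the counting of genes in 1 library and no spread between plants.

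The covered bp per protein-coding gene show the same. H3K4me3 covered 934 and 971 bp per gene in the first part in batches 1 and 2, and 897 and 893 bp in the rest. In seedlings it covered 900.4 bp in the first part and 934 bp in the rest. H3K9Ac covered 721 bp per gene in the first part and 777 bp in the rest, and H3K56Ac 774 and 767 bp. These bp include those outside genes. Covered share and genes per Mb were both lower in the first part, and whether one accounts for the other was not tested.

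H3K4me2 and H3K27me2 differed per gene as well. H3K4me2 marked 83.6% of the genes of the first part (Wilson 95% interval 76.4% to 88.9%) and 93.9% of those of the rest (92.3% to 95.2%), with 1047 and 1454 bp per gene. H3K27me2 marked 30.6% in the first part (23.4% to 38.8%) and 44.7% in the rest (41.8% to 47.7%). Its covered bp per gene were nearer, at 607 in the first part and 667 in the rest.

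Since genes of the first part were longer, a peak could meet them more easily. Among genes of 2 to 6 kb, of which the first part had 65 and the rest 598, H3K4me3 marked 83.1% and 80.0% in the first part in the tillering batches and 86.3% and 89.0% in the rest. Seedling H3K4me3 marked 84.6% in the first part and 91.5% in the rest. H3K9Ac marked 78.5% in the first part and 80.6% in the rest, and H3K56Ac 86.2% and 87.0%. With all genes and the stronger 50% of peaks of each list, the share of genes marked was higher in the first part by 9.16 points for tillering H3K4me3, 9.60 points for seedling H3K4me3 and 16.8 points for H3K9Ac. With all peaks H3K9Ac was already higher there by 4.68 points, and seedling H3K4me3 was at −4.96 points. The size of these differences in H3K4me3 and acetylation, and for some rules their direction, thus depended on how genes and peaks were counted.

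**Figure D4:**
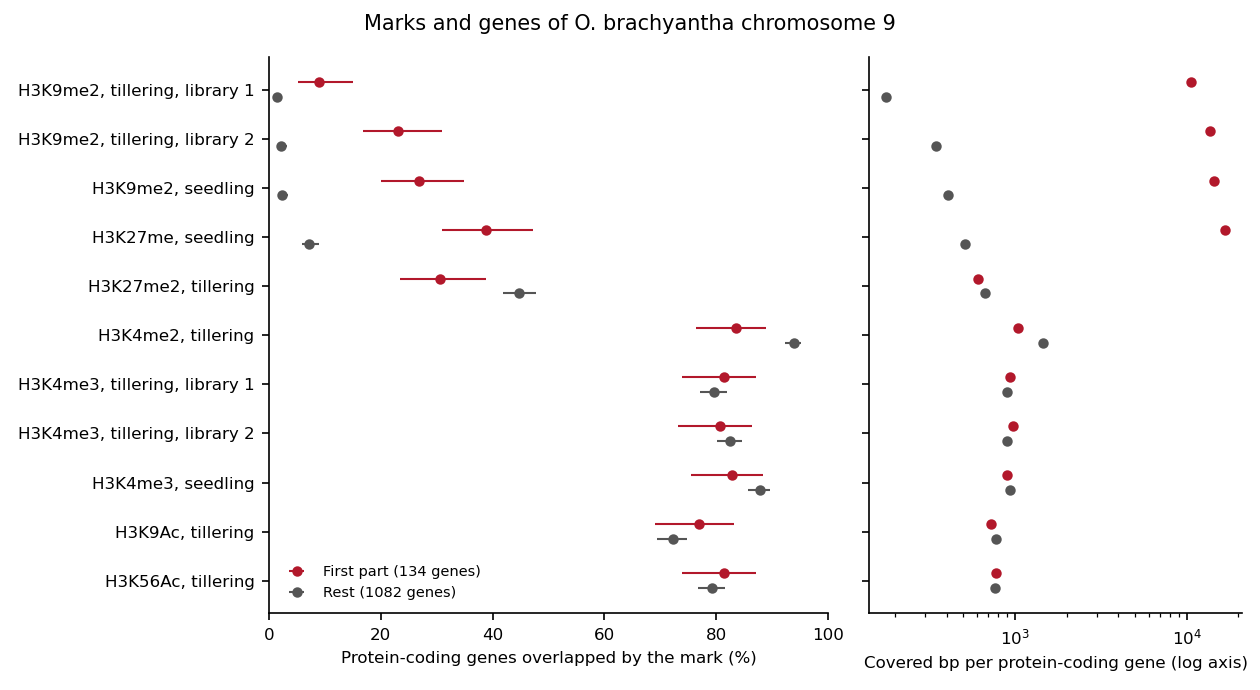
Protein-coding genes of O. brachyantha chromosome 9 overlapped by each mark (left, percent of genes with Wilson 95% intervals) and covered bp per protein-coding gene (right, log axis), with red points for the 134 genes of the first part and grey points for the 1082 genes of the rest. H3K4me3 and acetylation lie close together in both, H3K4me2 and H3K27me2 mark fewer genes of the first part, and H3K9me2 and H3K27me mark more.

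Few genes of the first part lay in H3K9me2. H3K9me2 touched 8.96% and 23.1% of them in the tillering batches and 26.9% in seedlings, although it covered 35.4% to 48.5% of the sequence. In the rest it touched 1.48% and 2.22% in the tillering batches and 2.31% in seedlings. H3K27me touched 38.8% of genes in the first part and 7.21% in the rest. H3K9me2 covered at least 50% of the span in all 3 libraries for 6 genes of the first part and for 1 of the rest, LOC102714493 at 9715998 to 9728634. In that gene H3K9me2 covered 58.1% and 73.3% in the tillering batches and 59.7% in seedlings, with H3K27me over 49.996% and no H3K4 methylation or acetylation peak.

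In the first part 96 of 134 genes (71.6%) carried H3K4me3 in all 3 libraries together with H3K9Ac and H3K56Ac, against 716 of 1082 (66.2%) in the rest. Genes with none of the active marks in any library made up 15 of 134 (11.2%) in the first part and 43 of 1082 (3.97%) in the rest. The genes of the first part with the highest mean H3K4me3 fold were LOC102707334, LOC102700827 and LOC102709589. LOC102707334, at 3403041 to 3409301, had H3K4me3 folds of 14.0 and 12.6 in the tillering batches and 6.26 in seedlings, with H3K9Ac at 14.2 and H3K56Ac at 8.44, and no H3K9me2. LOC102709589, at 3563317 to 3567527, had the highest H3K9Ac fold of the 12 genes named by this rule, 23.1. LOC102707334 lies in the window of 3.0 to 3.5 Mb, where H3K9me2 covered 56.8% and 65.8% in the tillering batches and 66.4% in seedlings. Of the 12 genes, 10 had no H3K9me2 in any list. LOC102700827, at 2277795 to 2281667, had H3K9me2 over 5.11% of its span in batch 2 and 15.1% in seedlings, and LOC102709589 had it over 8.19% in seedlings. The other genes of this set were LOC102708461, LOC102700267, LOC102714398, LOC102699336, LOC102711730, LOC102711914, LOC102705460, LOC102719076 and LOC102701199. The annotation used gives these genes no product name, so no role is stated.

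A small set of genes was touched by both kinds of mark somewhere in the span. In the first part 10 of 134 genes (7.46%) had H3K4me3 in every library and both acetylations and were also touched by H3K9me2 in every library, against 5 of 1082 (0.462%) in the rest. These 10 genes were 8129 to 62039 bp long, against a median of 4562.5 bp in the first part. The marks can thus lie apart within a gene, and the part of gene length in these shares was not tested. The longest, LOC107305519, has the same tillering H3K4me3 and acetylation folds as LOC102712417, which lies inside it. LOC102706316, at 2920864 to 2957508 and 36645 bp long, had H3K9me2 over 50.5% and 57.6% of its span in the tillering batches and 59.3% in seedlings. Its H3K4me3 folds were 7.10 and 10.1 in the tillering batches and 4.21 in seedlings. LOC102720626, at 551037 to 570024, had H3K9me2 over 50.2% and 51.1% in the tillering batches and 53.4% in seedlings, with H3K4me3 folds of 11.9, 9.49 and 3.85. Both genes were picked after their values were seen.

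The first part of O. brachyantha also holds a cluster of 10 ribosomal RNA genes, at 3186903 to 3219632. H3K9me2 covered 20.1% of this stretch in tillering batch 1, 66.7% in batch 2 and 68.7% in seedlings, and H3K27me covered 73.6%. The 50 kb before and after it had H3K9me2 over 71.2% and 85.7% in batch 1, 79.1% and 88.0% in batch 2, and 77.1% and 85.5% in seedlings. In batch 2 and in seedlings H3K9me2 covered at least 67.6% of every one of the 10 genes, and in batch 1 it covered none of 5 of them and all of 1. No peak of an active mark lay on any of the 10. Between the genes the stretch held 1 seedling H3K4me3 interval (1.45% of it), 1 of batch 2 H3K4me3 (1.21%), 1 of H3K9Ac (1.15%) and 3 of H3K56Ac (2.86%), and none of batch 1 H3K4me3 or of H3K4me2. The H3K9me2 peaks here had pileups of 111 to 220 in batch 1, 437 to 637 in batch 2 and 640 to 872 in seedlings, against chromosome medians of 7.07, 15.8 and 18.7, while their fold over the control was 1.23 to 1.51.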

How the data were processed

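The submitters' processing notes name Bowtie, MACS2 and bedtools, without versions, and each library has its own peak list. No calling threshold is stated. Each deposited list but O. sativa H3K27me gives a pileup signal and, as other joined values, the −log10 p, the fold ratio over the control and the −log10 q of every peak, per the file contents. That deposited list has a column each for −log10 p, fold ratio and −log10 q, and no pileup. All are the authors' values, and they served only to describe or filter peaks within a list. Among O. sativa seedlings, peak names carry a Bowtie setting, which in Bowtie's usual meaning picks 1 location by chance for a read with several matches (H3K9me2 and H3K27me) or keeps only uniquely mapped reads (H3K56Ac). The peak names of the other lists carry no such setting. H3K9me2 and H3K27me lists hold broad intervals and the other lists narrow ones.

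Read depth is unknown: no list gives a total. In the first part, the median pileup per list ran from 6.47 to 19.5 for H3K9me2 and from 30 to 124 for the marks with narrow peaks, and was 19.7 for H3K27me of O. brachyantha.

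Overlapping lines were merged, and intervals wholly beyond 500 kb from either end of chromosome 9 were kept. Covered shares, the 2-level step and a 3-segment fit, both weighted by window length, were computed with Python 3.11.15, numpy 2.4.6 and pandas 2.3.3, and were tested on simulated data. Windows under 250 kb were not counted. A split found in H3K9me2 of a species and stage was applied to its other marks, so the H3K9me2 difference itself is a description. Genes were assigned by their midpoint, and any overlap with the gene span counted, because the RefSeq table used (ObraRS2) gives no strand and so no gene start. It names no products, so gene groups by product were not made. The 2 longest H3K9me2 intervals per list, the longest interval of each other list in the first part, the rRNA genes, the 12 active genes of highest mean H3K4me3 fold in the first part and the silent genes of the rest were eligible to be named. Wilson 95% intervals were given for shares of genes. No test was made, since groups hold 1 or 2 libraries. The members, the lists and the alternatives were chosen with earlier results of these data known. Alternatives covered the window, the peak strength, the ends, clipped intervals, the fit, the rule for rich windows, the rule for marked genes and each library left out. The sorghum list and the H3K36me3 library were not used here.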

Additional observations from a re-analysis of the deposited data

Results flagged for a closer look

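The H3K9me2 covered share of the first part of chromosome 9 differed between stages in opposite directions in the species profiled at both. In O. sativa it was 36.2% in tillering plants and 29.7% and 32.1% in the seedling libraries, so that tillering plants were 5.31 points higher on the means. In O. brachyantha it was 35.4% and 45.9% in the tillering batches and 48.5% in seedlings, a difference of −7.80 points. Every tillering library lay above the seedling libraries in O. sativa and below the seedling library in O. brachyantha. The covered share of all 12 chromosomes moved the same way, at 21.0% in O. sativa tillering plants and 16.7% and 18.8% in the seedling libraries. In O. brachyantha it was 9.18% and 12.5% in the tillering batches and 13.5% in seedlings. The rest of chromosome 9 also moved this way in both species, so the shift was not particular to the first part. The difference between the species was not tested, and the O. brachyantha batches were further apart than batch 2 was from seedlings. Median pileups in the first part moved with these values in O. brachyantha, at 7.28 and 16.7 in the tillering batches and 19.5 in seedlings, and not in O. sativa, at 8.53 in tillering plants and 10.7 and 18.1 in seedlings. The O. sativa tillering list also held weaker peaks in the first part by the authors' −log10 q. The median was 1.356 in tillering plants, against 2.155 and 2.101 in the seedling libraries. In O. brachyantha it was 2.427 and 3.013 in the tillering batches and 3.106 in seedlings. The lists of the 2 stages of O. sativa thus differ in peak strength as well as in stage. The part of pileup and of peak strength in the result was not tested.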

How the results depend on the processing

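Of 46 alternative values for the end of the first part, 38 lay less than 0.5 Mb, 1 window, from the value reported. The others were 3.7 Mb for L. perrieri with 100 kb windows, 4.0 Mb for L. perrieri with a −log10 q of at least 1, of at least 2 and with the stronger 50% of peaks, 6.0 and 17.5 Mb for O. punctata at limits of 1 and 2, and 7.0 Mb (limit of 2) and 8.0 Mb (stronger 50%) for O. sativa tillering plants. Leaving out each library kept 4.5 Mb in O. brachyantha tillering plants and 9.0 Mb in O. sativa seedlings. A −log10 q limit of 1 did not change the H3K9me2 log2 ratio of O. brachyantha or O. sativa seedlings, so their unmoved ends at that limit add little.

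For log2 ratios of first part over rest, 91 of 100 alternative values moved by less than the spread between libraries, taken for groups of 1 library as the largest such SD, 0.42, and none changed sign. Many of the 91 had little or no room to move. A −log10 q limit of 1 left most ratios identical, and keeping clipped intervals left some H3K9me2 ratios identical. Leaving out 1 of 2 libraries moves their mean by less than their SD. With a −log10 q of at least 1, H3K9me2 of O. punctata was at 1.27. With a limit of 2, H3K9me2 was at 2.63 in O. sativa tillering plants, 1.86 in O. sativa seedlings, 0.12 in O. punctata and 1.38 in L. perrieri. With the stronger 50% of peaks, H3K9me2 of O. sativa seedlings was at 1.90, H3K4me3 of O. brachyantha tillering plants at −1.47 and H3K27me of O. brachyantha at 3.83. With the ends included, H3K4me3 of O. brachyantha tillering plants was at −1.70. Leaving out each library gave 3.67 to 4.27 for H3K9me2 and −1.56 to −1.50 for H3K4me3 of O. brachyantha tillering plants, and 1.64 to 1.76 for H3K9me2 of O. sativa seedlings. Without intervals of a pileup of 50 or more, an alternative chosen after seeing the data, H3K9me2 was at 4.01 in O. brachyantha tillering plants and 3.71 in seedlings.

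With rich windows set at 3 times the share of the 12 chromosomes, their number fell in each species, by construction, to 1 in O. sativa at each stage, 2 in O. glaberrima, 2 in O. punctata, 4.5 (mean of batches) and 5 in O. brachyantha tillering plants and seedlings, and 3 in L. perrieri.

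For the share of genes marked, first part minus rest in points, a peak over at least 50% of the gene span gave −23.6 for H3K4me2, −5.71 for tillering H3K4me3, −6.41 for H3K56Ac, −6.60 for H3K9Ac, 9.62 for H3K27me and 7.38 for seedling H3K9me2. The stronger 50% of peaks gave −29.3 for H3K4me2, 9.16 and 9.60 for tillering and seedling H3K4me3, 16.8 for H3K9Ac, 13.8 for H3K27me and 9.62 for seedling H3K9me2. Genes of 2 to 6 kb, chosen after seeing the data, gave −6.09 for tillering H3K4me3, −0.803 for H3K56Ac and −2.14 for H3K9Ac. Leaving out each library gave −1.94 to 1.68 for tillering H3K4me3 and 7.48 to 20.9 for tillering H3K9me2. The signs of H3K4me3 and of acetylation thus changed with the rule, and those of H3K9me2, H3K27me, H3K4me2 and H3K27me2 did not. The cause was not tested.

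The reference chromosome length was not run, for lack of a genome. No paired analysis was possible because no result comes from a test.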

Other observations

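H3K9me2 intervals of very high pileup lay in a few places on O. brachyantha chromosome 9. A pileup of 50 or more was reached by 7 intervals in tillering batch 1, 41 in batch 2 and 38 in seedlings, and of the 7 in batch 1, 6 lay in the cluster of ribosomal RNA genes and the other just past its end. A run from 1577435 to 1646354 (68.9 kb, RS2 assembly), inside the first part, held 22 such intervals in batch 2, with pileups of 53.6 to 149.79, and 25 in seedlings, with pileups of 52.9 to 128.75. H3K9me2 covered 33.5% of it in batch 2, 41.2% in seedlings and 0% in batch 1. H3K27me covered 12.1% of it in seedlings, and 2 seedling H3K4me3 intervals covered 0.483% of it. No tillering H3K4me3, H3K4me2, H3K9Ac, H3K27me2 or H3K56Ac interval lay in it.

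A second run lay in the rest of the chromosome, from 14436854 to 14494106 (57.3 kb). H3K9me2 covered 77.8% of it in batch 2, with pileups of 95.5 to 173.72, 90.8% in seedlings, with pileups of 92.8 to 154.36, and 0% in batch 1. The fold over the control was 1.32 to 1.48 in batch 2 and 1.38 to 1.58 in seedlings, against chromosome medians of 2.33 and 2.25. No interval of another mark, H3K27me included, lay in this run, which holds the protein-coding genes LOC121055301, LOC121055287 and LOC121055315 and the tRNA gene TRNAY-GUA. It lies in the window of 14.0 to 14.5 Mb, where H3K9me2 covered 9.44% in batch 2, 10.9% in seedlings and 0.477% in batch 1. These places were picked after their values were seen.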
